A study of Cocos nucifera with 22 samples.

Results

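The Aromatic dwarf is a short-statured coconut variety with fragrant fruit, and its leaves 10 days after the start of salt treatment are set here against its leaves at 0 h. The libraries were chosen by their labels alone: 2 libraries of Aromatic dwarf leaf at 10 days and 3 at 0 h, 5 of the 22 libraries of the series. The seedlings were 4 to 5 months old, about 50 cm tall and grown in a greenhouse. From 0 h on they were watered weekly with a dilute nutrient solution holding 200 mM NaCl, and the leaves of 0 h had received no salt. The other 17 libraries are dwarf leaves at 4 h and 6 days and leaves of the Hainan tall, a tall-growing variety, at the same 4 times. They entered the same fit so that the spread between libraries was shared.

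Several limits of the design touch every value below. No leaf without salt was taken after 0 h, so salt, the time elapsed, the hour of sampling and the nutrient solution cannot be told apart. All 3 libraries of 0 h were run on flow cell AV and both of 10 days on flow cell AW, so within these 5 libraries the flow cell and the time cannot be told apart either. The flow cell term of the fit was estimated from the groups that lie on both. Samples of the same number came from the same leaf. The fit held no term for the leaf, so its p-values ignore this pairing and measure the spread between the samples. The total expected count was 3120851 and 3230765 at 10 days, against 3253749, 3330790 and 3343568 at 0 h. The 10 most abundant genes took 9.06% and 8.41% of the counts at 10 days, against 5.38%, 5.21% and 5.86% at 0 h. The 2 libraries of 10 days had a Spearman correlation of 0.964 with each other, against 0.942 to 0.961 between the libraries of 0 h. Replicate 1 of 0 h stood apart from replicates 2 and 3 on the first principal component of the 11 dwarf libraries, at -47.5 against 11.6 and -0.99, and both libraries of 10 days lay at the opposite end (84.2 and 77.6). In RNA from a whole leaf, fewer cells of a type and less RNA per cell cannot be told apart.

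Salt around the roots first withholds water from a plant and later loads its leaves with sodium. Plants answer the water shortage mainly through abscisic acid (ABA), a hormone that closes stomata and switches on protective proteins, and they move sodium with transporters, including those of the Salt Overly Sensitive (SOS) pathway. Leaf growth slows and the photosynthetic machinery often adjusts. Many photosynthesis genes, and the genes of the circadian clock, also swing in expression over the day in plants without stress.

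Levels are given as the deposited FPKM (reads scaled by the length of the gene and the size of the library), and fold changes as log2 of 10 days over 0 h with its standard error, from edgeR's quasi-likelihood test on the counts. A gene counts as risen or fallen at a Benjamini-Hochberg adjusted p under 0.05 over all 18840 genes tested. The test called 1507 genes, of which 759 rose (4.03%) and 748 fell (3.97%). This count depended on how the flow cell and the libraries entered: it was 3514 without the flow cell term, 2440 with only the 5 libraries compared, 436 with only the dwarf libraries and 1 with the 10 libraries of 0 h and 10 days of both varieties, a fit added after seeing the data. In that last fit only the tall leaves of 0 h lie on both flow cells, with replicate 2 alone on AW. Its flow cell term thus rests on that replicate. The median log2 fold change over all 18840 genes was -0.05. The split depended on the scale: on log2(FPKM + 1) with limma the median was -0.28, and 431 genes rose while 1857 fell. FPKM is set against the whole library and moves with the share taken by the most abundant genes. By these medians, the change on the FPKM scale ran lower than that of the fit. Single genes went either way, and the fit also holds a flow cell term. In AKT2 and galactinol synthase 1, for example, the plain ratio of mean FPKM was above the fold change of the fit. Both libraries of 10 days lay above every library of 0 h in FPKM for 13.1% of the genes tested and below every one for 42.7%. These are the figures against which non-overlap is read below.

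**Figure D1:**
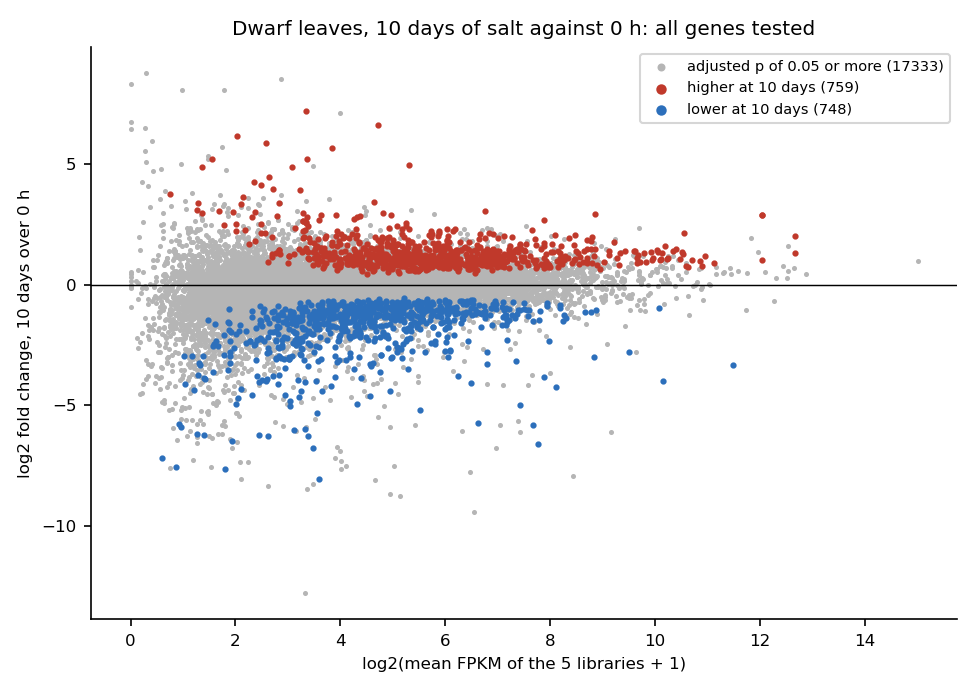
Fold change (log2 of 10 days over 0 h, from the fit) of each of the 18840 genes tested against its mean FPKM over the 5 libraries, on a log axis, with the 759 genes that rose and the 748 that fell coloured. The called genes lie on both sides of 0 in nearly equal number.

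Product names were available for 738 genes, which the study had picked on the Hainan tall leaves as changing with salt or as constantly abundant, so they are not a sample of all genes. Of these, 185 (25.1%) were called in the dwarf: 126 rose (17.1%) and 59 fell (7.99%), with a median of 0.27. The functional lists below were drawn from them, and every member passed the filter on low counts. The counts of each list are therefore read beside these shares. The counts rest heavily on single libraries. Without replicate 1 of 10 days the whole test called 81 genes, without replicate 2 of 10 days 357, without replicate 1 of 0 h 445, and without replicate 3 of the tall at 4 h 982. With 1 library of 10 days left, that library is assumed to vary as the other groups do. Of the 81 called genes that are named here by rule, 79 did not overlap between the groups in FPKM, and 9 passed the test in each of the 22 fits that left out 1 library. The 81 were picked as called on these same libraries, so their non-overlap is no separate support. Over all genes tested, 13.1% lay above and 42.7% below without overlap. With only the libraries of 0 h and 10 days, none of the 81 was called, these 9 included. The flow cell term of that fit rests on replicate 2 of the tall at 0 h. The 9 genes are PM19L, the actin-depolymerizing factor, CBSCBSPB3, 3-oxoacyl-ACP synthase II, the heavy metal-associated protein 27, ferredoxin-2, the F-box protein At2g32560, ACC synthase 8 and ribosomal protein S15a, all described below.

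**Figure D2:**
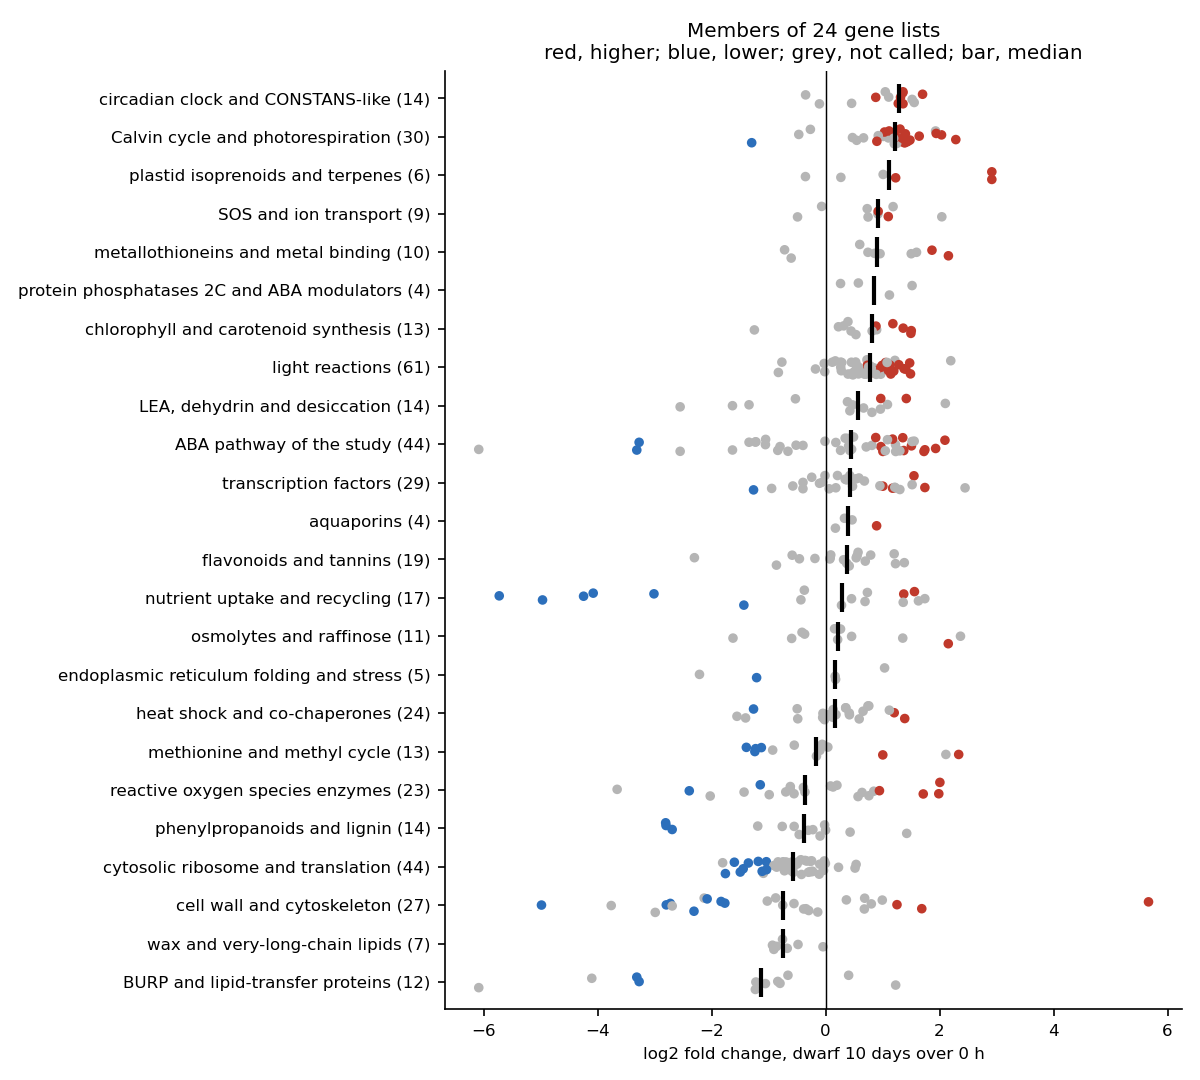
Log2 fold change of 10 days over 0 h for the members of the 24 functional lists, one point per gene, with genes that rose in red, genes that fell in blue, genes not called in grey and a bar at the median of each list. Clock, Calvin cycle and plastid isoprenoid genes have medians of 1.12 to 1.30, and BURP, cell wall and wax genes have medians of -1.14 to -0.75.

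Among the 30 genes of carbon fixation and photorespiration 17 rose and 1 fell, with a median of 1.22. Of all genes 4.03% rose and 3.97% fell, and of the named genes 17.1% rose and 7.99% fell. Rubisco activase 2 (CN01_04G001440, chromosome 4, 3803411 to 3806803 of the Hainan tall assembly ASM812446v1), which frees Rubisco of bound sugar phosphates, had 11864 and 10210.2 FPKM at 10 days, against 1924, 4362 and 3978 FPKM at 0 h. Both libraries of 10 days were far above any library of 0 h. Its log2 fold change was 2.03 ± 0.37 (SE, adjusted p = 0.00701). Glycine dehydrogenase (CN01_06G001740, chromosome 6, 4920497 to 4927277), the decarboxylating subunit of the mitochondrial glycine cleavage complex of photorespiration, had 617 and 517 FPKM at 10 days, against 116, 179 and 198 FPKM at 0 h (1.94 ± 0.37, adjusted p = 0.00856). Ribulose-phosphate 3-epimerase (CN01_02G007830), which regenerates the Rubisco substrate, had 536 and 591 FPKM at 10 days, against 142, 249.8 and 222 FPKM at 0 h (1.64 ± 0.33, adjusted p = 0.0098). In these genes replicate 1 of 0 h was the lowest of the 5 libraries. The plastid aldolase CN01_15G002290, among the most abundant transcripts, had 10894 and 10526 FPKM at 10 days, against 2978, 4703 and 3550.3 FPKM at 0 h, and its call (1.34 ± 0.39, adjusted p = 0.0418) was lost with the leaf as a block (adjusted p = 0.0726). The small regulator CP12-1 rose by 1.03 ± 0.22 (adjusted p = 0.0125). A gene named as a peroxisomal hydroxy-acid oxidase-like enzyme (CN01_06G020380), of the family of the photorespiratory glycolate oxidase, had 396 and 362 FPKM at 10 days, against 22.6, 121 and 99.5 FPKM at 0 h (2.29 ± 0.58, adjusted p = 0.0246, 0.0536 with the leaf as a block). The member that fell, named after its values were seen, was the beta subunit of the Rubisco-binding chaperonin (CN01_08G005460), with 102.61 and 73.57 FPKM at 10 days, against 269.1, 200.7 and 300.62 FPKM at 0 h. Without replicate 1 of 10 days, replicate 2 of 10 days, replicate 1 of 0 h or replicate 3 of the tall at 4 h, 0, 4, 6 and 11 members rose, and the lone fall was lost without either library of 10 days or without replicate 1 or 3 of 0 h. The median was 0.92 to 1.48 over the fits that left out 1 library.

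Of 61 light reaction genes, for photosystems, electron carriers, the ATP synthase and light-harvesting proteins, 21 rose and 0 fell, with a median of 0.78. The rises are 34.4% of the list, against 17.1% of the named genes. Ferredoxin-2 (CN01_01G019990), an electron carrier behind photosystem I, had 562 and 712 FPKM at 10 days, against 190.2, 344 and 272 FPKM at 0 h (1.49 ± 0.27, adjusted p = 0.00685). Subunit N of photosystem I (CN01_15G003340) had 2081 and 2142 FPKM at 10 days, against 701, 911 and 941 FPKM at 0 h (1.48 ± 0.29, adjusted p = 0.00893). The groups were well apart in both genes. Subunit III of photosystem I rose by 1.05 ± 0.21 (adjusted p = 0.0098) and the photosystem II 5 kDa protein by 0.99 ± 0.21 (adjusted p = 0.0112). The most abundant light-harvesting gene, the chlorophyll a-b binding protein CN01_02G004690, had 8183 and 5712 FPKM at 10 days, against 7728, 7218 and 8905 FPKM at 0 h, and its change of 0.45 ± 0.27 missed the threshold (adjusted p = 0.319). The 21 rises became 1, 8 and 6 without replicate 1 of 10 days, replicate 2 of 10 days or replicate 1 of 0 h, and the median was 0.65 to 0.86 over the fits that left out 1 library.

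Pigments and terpenes are made in the same plastids. Of 13 genes of chlorophyll and carotenoid metabolism, 5 rose and 0 fell (median 0.82, 38.5% risen against 17.1% of the named genes). Most are for synthesis, but chlorophyllase-1 and a carotenoid cleavage dioxygenase, which break pigments down, are among them. Phytoene synthase, the entry enzyme of carotenoid synthesis, had 386 and 431 FPKM at 10 days, against 129.9, 179 and 204 FPKM at 0 h (1.36 ± 0.31, adjusted p = 0.016). Phytoene desaturase, the next enzyme, had 242 and 248 FPKM at 10 days, against 63.2, 102 and 80.1 FPKM at 0 h (1.50 ± 0.39, adjusted p = 0.0266). Zeaxanthin epoxidase, which makes violaxanthin, a precursor of ABA, had 188 and 216 FPKM at 10 days, against 45.7, 82.7 and 63.7 FPKM at 0 h (1.50 ± 0.36, adjusted p = 0.0195). These 3 genes were above every library of 0 h in both libraries of 10 days. Chlorophyllide a oxygenase, which makes chlorophyll b, rose by 1.18 ± 0.28 (adjusted p = 0.0186), and the fifth rise, named after its values were seen, was a carotenoid cleavage dioxygenase (CN01_scaffold004822G000010, adjusted p = 0.0457). Of 6 genes of plastid isoprenoids, 3 rose and 0 fell (median 1.12), and 2 of these are tricyclene synthase loci with the same value in every library, which the counting cannot tell apart. Tricyclene synthase is a monoterpene-forming enzyme and was among the 10 most abundant named transcripts, with 9825 and 7816 FPKM at 10 days, against 326, 1947 and 1036 FPKM at 0 h. Its libraries of 0 h were themselves far apart, and its change of 2.92 ± 0.82 (adjusted p = 0.0371) was not called with the leaf as a block (adjusted p = 0.0924). HMB-PP reductase, the last enzyme of the plastid isoprenoid route, rose by 1.23 ± 0.35 (adjusted p = 0.0385, 0.0622 with the leaf as a block). No isoprenoid gene was called with the block, and neither list held a call without replicate 1 or 2 of 10 days or without replicate 1 of 0 h. Without replicate 3 of 0 h, 3 pigment genes and 0 isoprenoid genes rose. The isoprenoid count was also 0 without replicate 3 of either variety at 4 h and 1 without replicate 1 or 2 of the dwarf at 6 days.

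Clock genes time many processes of the leaf to the day. Of 14 genes of the circadian clock and the CONSTANS-like family, 7 rose and 0 fell (median 1.30, 50.0% risen against 17.1% of the named genes). LHY, a morning-phased transcription factor of the clock in Arabidopsis, had several loci. CN01_09G003420 (chromosome 9, 41580394 to 41582690) had 1448 and 1390.2 FPKM at 10 days, against 491, 782 and 764 FPKM at 0 h (1.36 ± 0.29, adjusted p = 0.0125). CN01_07G008390 (chromosome 7, 24637041 to 24643403) had 212 and 204 FPKM at 10 days, against 84.3, 113 and 121 FPKM at 0 h (1.28 ± 0.23, adjusted p = 0.00701). Near-identical copies could share reads, so the split between LHY loci is uncertain. Cryptochrome-1, a blue-light receptor, had 167 and 177 FPKM at 10 days, against 52.1, 104 and 87.6 FPKM at 0 h (1.36 ± 0.32, adjusted p = 0.0194), and CONSTANS-LIKE 2 had 153 and 184 FPKM at 10 days, against 71.4, 70.8 and 85.3 FPKM at 0 h (1.35 ± 0.29, adjusted p = 0.0136). The hour at which leaves were taken is not given in the sources used here, and the part of the hour of day in these and the photosynthesis values was not tested. At 4 h, by contrast, 1 of the 14 genes was called higher and 12 lower than at 0 h, with a median of -2.81. The 7 rises of 10 days became 0, 2 and 3 without replicate 1 of 10 days, replicate 2 of 10 days or replicate 1 of 0 h, and without replicate 2 of 0 h 11 did.

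**Figure D3:**
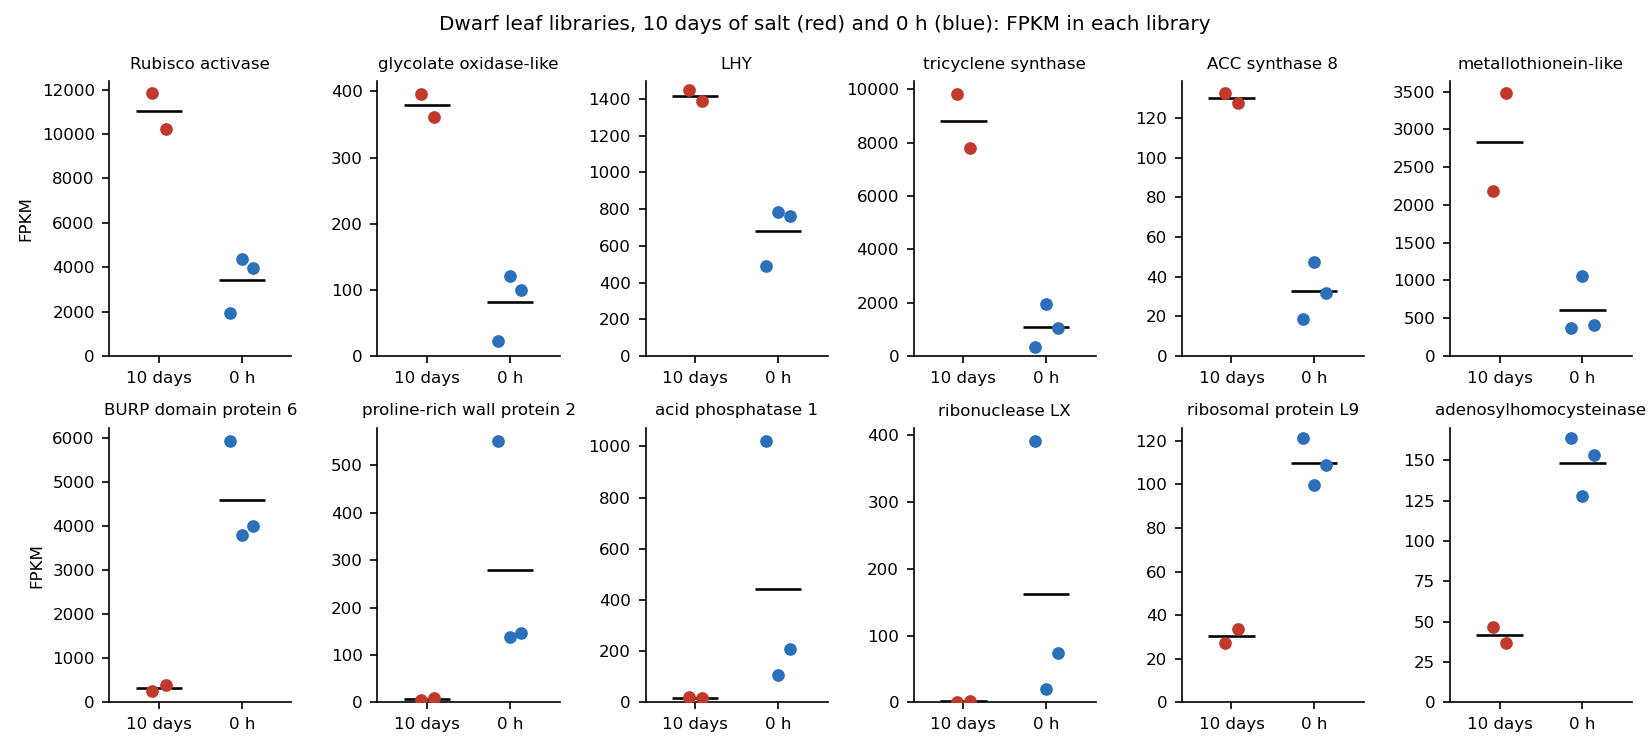
FPKM of 12 genes in each library, with the 2 libraries of 10 days left of the 3 of 0 h in each panel and a line at the group mean, each panel on its own axis starting at 0. Rubisco activase 2, with 11864 and 10210.2 FPKM at 10 days against at most 4362 FPKM at 0 h, and ribosomal protein L9, with 27.2 and 33.5 FPKM at 10 days against at least 99.9 FPKM at 0 h, show the spacing of the groups.

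Of 44 genes for cytosolic ribosomal proteins and translation factors, 0 rose and 10 fell, and the median was -0.57. Falls made up 3.97% of all genes and 7.99% of the named genes. Protein S15a of the small subunit (CN01_16G007570, chromosome 16, 35371304 to 35381606) had 112 and 108 FPKM at 10 days, against 497, 350.4 and 453 FPKM at 0 h (-1.50 ± 0.25, adjusted p = 0.00568). Protein L9 of the large subunit (CN01_08G008030) had 27.2 and 33.5 FPKM at 10 days, against 121, 99.9 and 109 FPKM at 0 h (-1.60 ± 0.27, adjusted p = 0.00568). In both genes all libraries of 10 days lay well below all of 0 h. L36-3 fell by 1.35 ± 0.29 on the log2 scale (adjusted p = 0.0133) and S7 by 1.18 ± 0.24 (adjusted p = 0.0112). In FPKM, 40 of the 44 members were below every library of 0 h in both libraries of 10 days, against 42.7% of all genes tested. The 10 falls became 1, 4 and 6 without replicate 1 of 10 days, replicate 2 of 10 days or replicate 1 of 0 h, with medians of -0.64 to -0.49 over the fits that left out 1 library. In the tall, 1 member was called higher and 2 lower at 10 days.

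Enzymes of the methyl cycle, which recycles homocysteine to methionine and S-adenosylmethionine, held falls as well. Of 13 genes of methionine and ethylene precursor metabolism, 2 rose and 4 fell (median -0.16). This is 46.2% called, against 25.1% of the named genes, of which 17.1% rose and 7.99% fell. Methionine synthase, named in the table as 5-methyltetrahydropteroyltriglutamate--homocysteine methyltransferase (CN01_03G000470), had 26.9 and 25.2 FPKM at 10 days, against 124, 86.1 and 97.1 FPKM at 0 h (-1.23 ± 0.28, adjusted p = 0.016). The other 3 that fell were adenosylhomocysteinase loci, which clear the by-product of methylation. CN01_02G014980 had 41.3 and 41.1 FPKM at 10 days, against 195, 96.1 and 164 FPKM at 0 h (-1.39 ± 0.35, adjusted p = 0.024), and CN01_scaffold002996G000040 fell by 1.13 ± 0.27 (adjusted p = 0.0191). The third, CN01_scaffold025167G000020, was named after its values were seen (-1.24 ± 0.33, adjusted p = 0.0297), and reads of near-identical loci could be split between them. The clearest rise was ACC synthase 8 (CN01_10G005660, chromosome 10, 14259675 to 14272765), the committed enzyme of ethylene synthesis, with 133 and 128 FPKM at 10 days, against 18.6, 47.4 and 32 FPKM at 0 h (2.34 ± 0.34, adjusted p = 0.00396). The other rise was the dioxygenase of methionine salvage (CN01_scaffold008171G000010), also named after its values were seen, with 158.77 and 138.13 FPKM at 10 days, against 60.89, 93.32 and 74.93 FPKM at 0 h (adjusted p = 0.0439). None of the 4 falls was called without replicate 1 or 2 of 10 days or without replicate 1 of 0 h, and 1 rise was left in these fits, as in 12 others that left out 1 library.

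Genes of growing walls held several large falls. Of 27 genes of the cell wall and cytoskeleton, 3 rose and 7 fell (median -0.75, 37.0% called against 25.1% of the named genes). A repetitive proline-rich wall protein (CN01_01G018670, chromosome 1, 104086103 to 104089862) had 6.03 and 8.64 FPKM at 10 days, against 552, 137 and 148 FPKM at 0 h (-4.98 ± 0.93, adjusted p = 0.00828). An endoglucanase, of a family that cuts glucan chains of the wall, had 15.5 and 18.4 FPKM at 10 days, against 167, 66.8 and 85 FPKM at 0 h (-2.08 ± 0.43, adjusted p = 0.0117). In both genes replicate 1 of 0 h was the highest of the 5 libraries, and the groups did not overlap. A beta-galactosidase (CN01_03G015300) had 12.8 and 20 FPKM at 10 days, against 282, 90.2 and 145 FPKM at 0 h (-2.79 ± 0.69, adjusted p = 0.0222). The tubulin beta-1 chain, a subunit of microtubules, fell by 1.83 ± 0.42 (adjusted p = 0.0173), and fasciclin-like arabinogalactan protein 2 by 2.72 ± 0.65 (adjusted p = 0.0197). The other 2 falls, named after their values were seen, were chitinase-like protein 1 (-2.31 ± 0.63) and beta-galactosidase 5 (-1.77 ± 0.45). Among the rises, an actin-depolymerizing factor (CN01_06G018630, chromosome 6, 68080032 to 68082323), which severs actin filaments, had 293 and 282 FPKM at 10 days, against 102, 128 and 124 FPKM at 0 h, with the smallest adjusted p of the genes named here (1.69 ± 0.23, adjusted p = 0.00327). CASP-like protein 2D1 rose by 1.25 ± 0.29 (adjusted p = 0.0181). PELPK1-like was called at 5.67 ± 1.47 (adjusted p = 0.0265) on few reads, with 10 and 63 counts at 10 days, against 9, 10 and 3 counts at 0 h, and its counts overlapped between the groups. Without the flow cell term its change was 2.63 and was not called (adjusted p = 0.222). The 7 falls became 0, 1 and 2 without replicate 1 of 10 days, replicate 2 of 10 days or replicate 1 of 0 h, where 1 gene rose each time, and without replicate 2 of 0 h or replicate 2 of the dwarf at 6 days 6 and 5 rose.

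Lignin and surface lipids finish the wall and cuticle of a leaf. Of 14 phenylpropanoid and lignin genes, 0 rose and 3 fell (median -0.38, 21.4% fallen against 7.99% of the named genes). 4-Coumarate--CoA ligase 1, which activates lignin precursors, had 4.48 and 6.4 FPKM at 10 days, against 97.8, 25.9 and 28.8 FPKM at 0 h (-2.80 ± 0.59, adjusted p = 0.0124). Laccase-6, of a family that polymerizes lignin, had 12.1 and 6.02 FPKM at 10 days, against 214, 45.2 and 57 FPKM at 0 h (-2.69 ± 0.71, adjusted p = 0.0291). Dirigent protein 19, of a family that steers lignan coupling, had 11.4 and 9.4 FPKM at 10 days, against 143, 23.6 and 53 FPKM at 0 h (-2.80 ± 0.74, adjusted p = 0.0289, 0.054 with the leaf as a block). Replicate 1 of 0 h was again the highest library in each gene. Of 12 genes of BURP domain and lipid-transfer proteins, 0 rose and 2 fell, with the lowest median of the lists (-1.14). BURP domain-containing protein 6 had 252 and 388 FPKM at 10 days, against 5953, 3814 and 4003 FPKM at 0 h (-3.31 ± 0.82, adjusted p = 0.0222), and the proline-rich protein DC2.15-like had 8.66 and 11.7 FPKM at 10 days, against 231, 70.7 and 226 FPKM at 0 h (-3.27 ± 0.99, adjusted p = 0.0496). The groups were far apart in both. No member of the 7 wax genes (median -0.76) or of the 19 flavonoid genes (median 0.37) was called. Closest were fatty acyl-CoA reductase 3, a wax alcohol enzyme (243 and 217 FPKM at 10 days, against 524, 494 and 518 FPKM at 0 h, adjusted p = 0.0981), and flavonoid 3',5'-hydroxylase 1 (11.7 and 5.02 FPKM at 10 days, against 113, 24 and 65.6 FPKM at 0 h, adjusted p = 0.0509). Very-long-chain 3-oxoacyl-CoA reductase 1 stood at -0.93 ± 0.39 (adjusted p = 0.15) and the tannin regulator TT2 at 1.23 ± 0.38 (adjusted p = 0.0556). None of the 5 falls was called without replicate 1 or 2 of 10 days, and without replicate 1 of 0 h 1 lignin gene was, while without replicate 2 of 0 h 4 BURP and lipid-transfer genes fell. In 12 other fits that left out 1 library, 1 BURP or lipid-transfer gene did.

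Of 17 genes of nutrient uptake and recycling, 2 rose and 6 fell (47.1% called against 25.1% of the named genes), and the median was 0.28. The 6 include genes that recycle nucleic acid, phosphate and amino nitrogen. Acid phosphatase 1 (CN01_03G014460, chromosome 3, 74367040 to 74369515), which frees phosphate, had 19.3 and 19 FPKM at 10 days, against 1022, 106 and 207 FPKM at 0 h (-4.24 ± 0.95, adjusted p = 0.0155). NADH-dependent glutamate synthase 1, which assimilates ammonium, had 20.8 and 16.6 FPKM at 10 days, against 70.4, 53 and 70.7 FPKM at 0 h (-1.43 ± 0.33, adjusted p = 0.0167). The first of these was spread widely over the leaves of 0 h and the second was not. The ribonuclease LX locus CN01_02G012760, for an RNA-degrading enzyme known from tomato, had 6.84 and 1.79 FPKM at 10 days, against 294, 33.2 and 110.0 FPKM at 0 h (-4.08 ± 1.06, adjusted p = 0.0271). The neighbouring copy CN01_02G012770 had 2 and 3 counts at 10 days, against 661, 35 and 128 counts at 0 h (adjusted p = 0.0386 by edgeR's test). Relative to the library totals it was 105-fold higher at 0 h than at 10 days (45.0 to 326, exact 95% interval for counting error only). Asparagine synthetase, which stores nitrogen in asparagine, had 2 and 10 counts at 10 days, against 305, 86 and 58 counts at 0 h (-4.97 ± 1.50, adjusted p = 0.0496). NRT1/PTR family 4.6, of a family of nitrate and peptide transporters, had 7.14 and 8.48 FPKM at 10 days, against 197, 37.4 and 78.9 FPKM at 0 h (-3.01 ± 0.89, adjusted p = 0.0458, 0.0576 with the leaf as a block). Replicate 1 of 0 h was the highest library in each of these genes except glutamate synthase, where replicate 3 was as high. The rises were PHR1-LIKE 2, a relative of the phosphate starvation regulator PHR1, with 221 and 228 FPKM at 10 days, against 64.1, 132 and 120.2 FPKM at 0 h (1.37 ± 0.30, adjusted p = 0.0147), and sulfate transporter 3.1, named after its values were seen (1.56 ± 0.46, adjusted p = 0.0448). A gene annotated as ricin (CN01_08G006760), a name for ribosome-inactivating lectins, had 29.9 and 138 FPKM at 10 days, against 4038, 976 and 489 FPKM at 0 h (-3.97 ± 1.19, adjusted p = 0.0473). The list had 0 calls without replicate 1 or without replicate 2 of 10 days, 2 falls and 1 rise without replicate 1 of 0 h, and without replicate 2 of 10 days its median was -0.10. The falls were 3 without replicate 3 or replicate 1 of the dwarf at 4 h and 6 days, or without any 1 library of the tall at 4 h, and the rises numbered 1 to 4 over the other libraries left out.

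Of the 44 genes of the study's ABA pathway, 11 rose and 2 fell (median 0.44), beside 17.1% and 7.99% of the named genes from which they come. The 2 were the BURP and DC2.15-like genes above. The CBS domain-containing protein CBSCBSPB3 (CN01_02G010450, chromosome 2, 43525167 to 43537313) had 175 and 187 FPKM at 10 days, against 44, 59 and 68.3 FPKM at 0 h (1.93 ± 0.32, adjusted p = 0.00568). The F-box protein At2g32560, of a family that marks proteins for degradation, had 121 and 152 FPKM at 10 days, against 38.9, 65.7 and 50.5 FPKM at 0 h (1.51 ± 0.26, adjusted p = 0.00608). A second CBS domain-containing protein (CN01_09G008820) rose by 1.73 ± 0.34 (adjusted p = 0.00893). The 11 rises also hold CONSTANS-LIKE 2, GLK1, MYBS3, RISBZ2 and PHR1-LIKE 2, which are described with their own lists. Of 4 genes of protein phosphatases 2C, negative regulators of ABA signalling, and ABA modulators, 0 were called (median 0.85). Protein phosphatase 2C 53 (CN01_14G000430) had 74.5 and 76.6 FPKM at 10 days, against 38.2, 54.1 and 48.9 FPKM at 0 h. The groups did not overlap, and the change of 1.12 ± 0.38 missed the threshold (adjusted p = 0.0738). The E3 ligase XERICO, which raises ABA in Arabidopsis, had 119 and 158 FPKM at 10 days, against 19.4, 68.6 and 34.2 FPKM at 0 h (1.52 ± 0.51, adjusted p = 0.0751). The 11 rises became 3, 4 and 5 without replicate 1 of 10 days, replicate 2 of 10 days or replicate 1 of 0 h, with 0 falls in each. The 2 falls were 6 without replicate 2 of 0 h, 4 without replicate 3 of the tall at 6 days and 1 in 12 other fits.

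Ion transport and protective proteins are described by 4 lists, with 17.1% of the named genes risen as their background. Of 9 SOS and ion transport genes, 2 rose and 0 fell (median 0.92). CBL-interacting protein kinase 1, of the kinase family that includes SOS2, had 428 and 455 FPKM at 10 days, against 179, 203 and 196 FPKM at 0 h (1.10 ± 0.28, adjusted p = 0.0243). Glutamate receptor 3.3, a calcium-permeable channel in Arabidopsis, had 101 and 81.7 FPKM at 10 days, against 68.7, 61.2 and 74.5 FPKM at 0 h (0.92 ± 0.27, adjusted p = 0.0409, 0.0713 with the leaf as a block). The potassium channel AKT2 (CN01_01G020060, chromosome 1, 110243997 to 110254521) had 781 and 673 FPKM at 10 days, against 120.1, 328 and 286 FPKM at 0 h. Both leaves of 10 days were above all of 0 h, yet the change of 1.18 ± 0.53 missed the threshold (adjusted p = 0.171) and passed it without the flow cell term (adjusted p = 0.0185). Of 14 genes of LEA proteins, dehydrins and desiccation, 2 rose and 0 fell (median 0.57). The membrane protein PM19L, related to a dehydration-induced family, had 507 and 590.0 FPKM at 10 days, against 219.7, 228 and 251 FPKM at 0 h (1.42 ± 0.22, adjusted p = 0.00448), and temperature-induced lipocalin-1 had 696 and 602 FPKM at 10 days, against 476, 407 and 431 FPKM at 0 h (0.97 ± 0.24, adjusted p = 0.0207). Of 4 aquaporins 1 rose and 0 fell (median 0.40). It was PIP2-7, a water channel of the plasma membrane, with 445 and 558 FPKM at 10 days, against 330.3, 462 and 419.6 FPKM at 0 h. Its groups overlapped in FPKM, and the call (0.90 ± 0.25, adjusted p = 0.0379) was lost without the flow cell term (adjusted p = 0.0785). Of 11 genes of osmolytes and raffinose 1 rose and 0 fell, with a median of 0.21 that was -0.07 on the FPKM scale. It was a beta-amylase, a starch-degrading enzyme, with 185 and 233 FPKM at 10 days, against 19.7, 70.5 and 57.8 FPKM at 0 h (2.15 ± 0.48, adjusted p = 0.0149). Galactinol synthase 1, the entry to raffinose synthesis, had 7059 and 7166 FPKM at 10 days, against 402, 3893 and 1338 FPKM at 0 h, and was not called (1.35 ± 0.82, adjusted p = 0.323). PM19L was the lone call of these 4 lists without replicate 1 of 10 days, and 1 LEA gene was the lone call without replicate 2. The ion transport genes and aquaporins had 0 calls without replicate 1 of 0 h, and the aquaporin was lost in 8 of the 22 fits. The LEA genes had 4 rises and 2 falls without replicate 2 of 0 h. They had 1 fall without replicate 3 of 0 h or replicate 3 of the tall at 6 days. The rises of osmolytes were 3 without replicate 2 of 0 h and 2 without replicate 2 of the tall at 0 h. A single ion transport gene rose in 7 fits that left out other libraries.

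Of 10 genes for metal-binding proteins, 2 rose and 0 fell (median 0.91). The share that rose was near that of the named genes, of which 17.1% rose and 7.99% fell. The heavy metal-associated isoprenylated protein 27 (CN01_07G002690) had 619.9 and 607 FPKM at 10 days, against 167, 321 and 361 FPKM at 0 h (1.87 ± 0.30, adjusted p = 0.00494). A metallothionein-like protein (CN01_06G004190), of a family of small metal-binding proteins, had 2179 and 3479 FPKM at 10 days, against 366, 1056 and 405 FPKM at 0 h (2.16 ± 0.56, adjusted p = 0.0274). Metallothionein type 3, MT3 (CN01_14G002700, chromosome 14, 6743844 to 6745657) had 10260.4 and 10723 FPKM at 10 days, against 1643, 4832 and 2313 FPKM at 0 h. The groups did not overlap, but the leaves of 0 h differed among themselves, and the change of 1.60 ± 0.82 missed the threshold (adjusted p = 0.237). It passed without the flow cell term (adjusted p = 0.0448), as did 8 members of the list. A single member rose without replicate 1 or 2 of 10 days or replicate 1 or 3 of 0 h, and without replicate 2 of 0 h 4 did.

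Of 23 genes for enzymes that handle reactive oxygen species, 4 rose and 2 fell (median -0.36). This is 26.1% called, near the 25.1% of the named genes, of which 17.1% rose and 7.99% fell. The catalase isozyme 1 locus CN01_scaffold008402G000010, for an enzyme that breaks down the hydrogen peroxide of photorespiration, had 259 and 273 FPKM at 10 days, against 36.4, 111 and 91.9 FPKM at 0 h (1.99 ± 0.41, adjusted p = 0.0115), and a second locus, CN01_07G014620, had 382 and 501 FPKM at 10 days, against 75.3, 224 and 125 FPKM at 0 h (1.71 ± 0.43, adjusted p = 0.0234). Near-identical copies may share reads. Catalase isozyme 2 (CN01_09G007380) and peroxidase 4, named after their values were seen, were the genes that fell, with 203.67 and 223.42 FPKM at 10 days, against 781.71, 543.01 and 429.33 FPKM at 0 h for the catalase (-1.15 ± 0.32, adjusted p = 0.0371, 0.0651 with the leaf as a block). The peroxidase, CN01_04G004220, had 10.4 and 6.68 FPKM at 10 days, against 163, 45.5 and 90.7 FPKM at 0 h (-2.39 ± 0.66, adjusted p = 0.0349). Catalase loci thus lay on both sides of 0. A thioredoxin (CN01_02G011730), a small disulfide-reducing protein, had 963 and 782 FPKM at 10 days, against 80.5, 220.2 and 183 FPKM at 0 h (2.01 ± 0.56, adjusted p = 0.0349, 0.122 with the leaf as a block). Ascorbate peroxidase 3 had 513 and 388 FPKM at 10 days, against 309, 355 and 399 FPKM at 0 h. Its groups overlapped in FPKM, and the call (0.95 ± 0.25, adjusted p = 0.03) was lost with the block (adjusted p = 0.0526) and without the flow cell term (adjusted p = 0.0633). The plastid copper-zinc superoxide dismutase SODCP (CN01_08G010630, chromosome 8, 54612660 to 54614219) had 372 and 435 FPKM at 10 days, against 517, 347 and 345 FPKM at 0 h, a change of 0.20 ± 0.22 (adjusted p = 0.62). This list had 0 calls without replicate 1 of 10 days, 1 rise and 0 falls without replicate 2 of 10 days or replicate 1 of 0 h, and 2 rises without replicate 3 of 0 h or replicate 3 of the tall at 4 h. Its falls were 5 without replicate 2 of 0 h, 0 without replicate 3 of the dwarf at 4 h or replicate 1 at 6 days, and 1 without replicate 1 or 3 of the tall at 4 h.

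Of 29 transcription factors, 4 rose and 1 fell (median 0.43). This is 17.2% called, below the 25.1% of the named genes, of which 17.1% rose and 7.99% fell. The bZIP factor RISBZ2, named after a rice gene, had 123 and 76 FPKM at 10 days, against 25.8, 32.5 and 30 FPKM at 0 h (1.74 ± 0.42, adjusted p = 0.0195). GLK1, a regulator of chloroplast development, had 314 and 302 FPKM at 10 days, against 139, 233 and 223 FPKM at 0 h (1.01 ± 0.28, adjusted p = 0.0371, 0.0791 with the leaf as a block). MYBS3, a regulator of sugar-starvation genes in rice, had 388 and 374 FPKM at 10 days, against 206, 258 and 316 FPKM at 0 h (1.18 ± 0.34, adjusted p = 0.0391). The homeobox-leucine zipper protein HOX6 had 53.1 and 75.4 FPKM at 10 days, against 48.9, 29.5 and 36.5 FPKM at 0 h (1.55 ± 0.44, adjusted p = 0.0393). MYBS3 and HOX6 were not called without the flow cell term (adjusted p = 0.0542 and 0.076). The lone fall was the heat stress factor A-2c, with 209 and 121 FPKM at 10 days, against 435, 328 and 432 FPKM at 0 h (-1.26 ± 0.37, adjusted p = 0.046, 0.053 without the flow cell term). The rises became 0 without replicate 1 of 10 days or replicate 1 of 0 h, 2 without replicate 2 of 10 days and 8 without replicate 2 of 0 h. They were 2 without replicate 1 of the dwarf at 4 h or of the tall at 0 h, 1 without replicate 3 of either variety at 4 h, and 7 without replicate 2 of the tall at 0 h. The fall was lost in 15 of the 22 fits that left out 1 library.

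The largest rises also included enzymes of specialised metabolism outside these lists. Cytochrome P450 71A9, of a family of oxidases of plant metabolites, had 194 and 254 FPKM at 10 days, against 19.1, 54.4 and 17.2 FPKM at 0 h (3.07 ± 0.66, adjusted p = 0.0134). A tropinone reductase (CN01_12G008390), of a family of dehydrogenases named for alkaloid synthesis, had 765 and 1112 FPKM at 10 days, against 66.5, 247 and 125 FPKM at 0 h (2.94 ± 0.68, adjusted p = 0.0174). Both were above 0 h by a wide margin in both leaves. 3-Oxoacyl-ACP synthase II (CN01_05G008150), which lengthens fatty acids in the plastid, had 135 and 115 FPKM at 10 days, against 23.3, 42.1 and 32.1 FPKM at 0 h (2.24 ± 0.34, adjusted p = 0.00416). A haloacid dehalogenase-like hydrolase had 678 and 559.6 FPKM at 10 days, against 81.1, 226 and 216 FPKM at 0 h (2.09 ± 0.42, adjusted p = 0.0098), and peroxisomal membrane protein 2 had 218 and 198 FPKM at 10 days, against 25.6, 97.6 and 58 FPKM at 0 h (2.13 ± 0.43, adjusted p = 0.0098). Among genes with no product name, COCehwD018018.1 had 90.7 and 93.2 FPKM at 10 days, against 0.47, 3.65 and 5.27 FPKM at 0 h (4.99 ± 0.86, adjusted p = 0.00608). COCehwD005551.1 had 44 and 35 counts at 10 days, against 0, 2 and 2 counts at 0 h. Relative to the library totals it was 30.9-fold higher at 10 days (11.6 to 116, exact 95% interval for counting error only). The fit gave it a log2 fold change of 6.63 ± 0.93 (adjusted p = 0.00396), and 5.12 without the flow cell term. Of the unnamed genes that fell, COCehwD021508.1 had 0 counts in both libraries of 10 days, against 18, 12 and 53 counts at 0 h (adjusted p = 0.0421). This is at least 8.82-fold lower at 10 days when 3 counts per library are set as the floor. COCehwD017737.1 had 1 and 0 counts at 10 days, against 125, 13 and 84 counts at 0 h (adjusted p = 0.0186). Relative to the library totals it was 142-fold higher at 0 h than at 10 days (25.2 to 5630.0, counting error only). COCehwD021508.1 and COCehwD017737.1 were not called without replicate 1 of 0 h (adjusted p = 0.0696 and 0.0518). With only the dwarf libraries they were not called either (adjusted p = 0.0797 and 0.084).

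Heat shock genes were among those that differed between the leaves of 10 days and 6 days, but few were called against 0 h. Of 24 genes of heat shock proteins, co-chaperones and heat stress factors, 3 of them named as chloroplastic, 2 rose and 1, the heat stress factor A-2c above, fell at 10 days against 0 h. This is 12.5% called, against 25.1% of the named genes. The median of the 24 was 0.16. It changed sign on the FPKM scale (-0.08) and in some fits that left out 1 library (-0.11 to 0.54). The class II small heat shock protein CN01_scaffold007600G000070, which keeps unfolding proteins from clumping, had 930.3 and 867 FPKM at 10 days, against 248, 351 and 376 FPKM at 0 h (1.39 ± 0.31, adjusted p = 0.0144), and the class III protein CN01_03G004950 had 187 and 162 FPKM at 10 days, against 62.1, 83.5 and 88.5 FPKM at 0 h (1.20 ± 0.23, adjusted p = 0.00869). Neither was called without replicate 1 of 10 days. Of 5 genes of folding and stress in the endoplasmic reticulum, 0 rose and 1 fell, with a median of 0.17 (-0.09 on the FPKM scale). It was endoplasmin, with 35.2 and 49.6 FPKM at 10 days, against 86.3, 82.7 and 71.8 FPKM at 0 h (-1.21 ± 0.31, adjusted p = 0.0251), which was not called without the flow cell term (adjusted p = 0.221) or without replicate 1 or 2 of 10 days or replicate 1 of 0 h.

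Between 10 days and 6 days, 53 genes were higher (0.281%) and 67 lower (0.356%) at 10 days. This comparison uses no library of 0 h, and replicates 2 and 3 of 6 days lie on the flow cell of the 10 days libraries. Of the 738 named genes, 6 rose and 5 fell, and 4 of the 6 were heat shock or co-chaperone genes. The class II protein stood at 930.3 and 867 FPKM at 10 days, against 173, 204 and 138 FPKM at 6 days (2.25 ± 0.26, adjusted p = 0.000962). A class I small heat shock protein (CN01_02G006280) had 215 and 121 FPKM at 10 days, against 34.7, 59.7 and 71.8 FPKM at 6 days (1.70 ± 0.30, adjusted p = 0.0243), and a DnaJ co-chaperone had 744 and 584 FPKM at 10 days, against 270.1, 282 and 321 FPKM at 6 days (1.31 ± 0.22, adjusted p = 0.0174). The class III protein was higher by 0.94 ± 0.20 (adjusted p = 0.0405). For the class I and DnaJ genes, the leaves of 10 days overlapped those of 0 h, which held 179, 137 and 174 FPKM and 612, 673 and 789 FPKM. HOX6 had 53.1 and 75.4 FPKM at 10 days, against 16.6, 14.8 and 19.2 FPKM at 6 days (2.10 ± 0.40, adjusted p = 0.0347), and the remaining rise was a conserved hypothetical protein (CN01_14G008630, 1.14 on the log2 scale, adjusted p = 0.0378). Among the falls, histone H1.2, a linker of chromatin, had 196 FPKM in both leaves of 10 days, against 427, 508 and 397 FPKM at 6 days (-1.32 ± 0.22, adjusted p = 0.0173), and the beta-1 tubulin had 20.1 and 12.7 FPKM at 10 days, against 32.7, 53.5 and 95.2 FPKM at 6 days (-1.87 ± 0.38, adjusted p = 0.0363). Acyl transferase 9 fell by 1.10 ± 0.22 (adjusted p = 0.0363), glutamate synthase 1 by 1.43 ± 0.29 (adjusted p = 0.0363) and the adenosylhomocysteinase CN01_02G014980 by 1.46 ± 0.31 (adjusted p = 0.0412). With the libraries of flow cell AW alone, 21 genes were higher and 101 lower. There the class II protein, HOX6, the tubulin, glutamate synthase 1 and the adenosylhomocysteinase were called, and histone H1.2 (adjusted p = 0.0568), acyl transferase 9 (0.0598), the class I protein (0.0776), the DnaJ gene (0.0785) and the class III protein (0.1) were not. The count was 5 without replicate 1 of 10 days, 7 without replicate 2 of 10 days and 29 to 340 without 1 of the other libraries.

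Earlier in the course, the leaves of 4 h had 1094 rises (5.81%) and 1363 falls (7.23%) against 0 h, and those of 6 days had 821 rises (4.36%) and 681 falls (3.61%). All of these comparisons share the libraries of 0 h, so the levels are given side by side. Rubisco activase 2 averaged 3422 ± 1311 FPKM at 0 h, 982 ± 101 FPKM at 4 h, 9232 ± 2889 FPKM at 6 days and 11037 ± 1169 FPKM at 10 days (SD, n = 3, except 2 at 10 days). At 4 h its 3 leaves were below every leaf of 0 h, and at 6 and 10 days every leaf was above them. The class II heat shock protein had 3.97, 4.88 and 2.9 FPKM at 4 h, the lowest of its levels, and S15a had 553, 542 and 779 FPKM at 4 h, the highest of its levels. LHY CN01_09G003420 had 62.7, 57.8 and 82.1 FPKM at 4 h and 1237, 1077 and 874 FPKM at 6 days, with its levels of 0 h between these. Its 6-day and 10-day leaves did not overlap, but the difference missed the threshold (0.42 ± 0.26, adjusted p = 0.446).

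**Figure D4:**
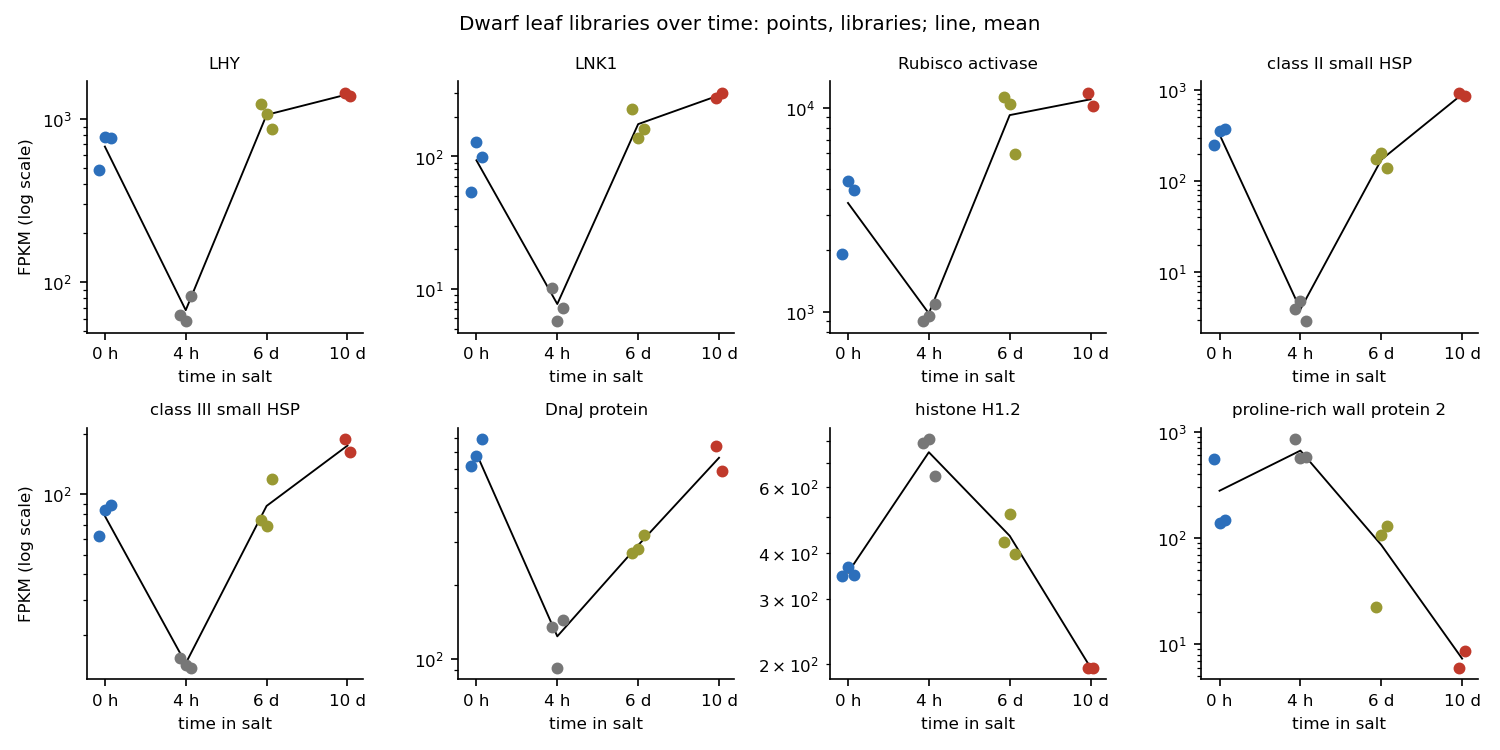
FPKM on a log axis of 8 genes in each dwarf library at the 4 times, from 0 h on the left to 10 days on the right, with a line through the group means. Rubisco activase 2 is lowest at 4 h (899.9 to 1096 FPKM) and stands at 11864 and 10210.2 FPKM at 10 days, while histone H1.2 is highest at 4 h and lowest at 10 days (196 FPKM in both leaves).

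The change was set beside that of the Hainan tall, whose libraries of 10 days and 0 h are separate from those of the dwarf. Both changes came from the same fit with a shared flow cell term, which rests in part on tall libraries. The estimates are therefore not independent, and neither are the shared calls below. In the tall, 937 genes were higher (4.97%) and 585 lower (3.11%) at 10 days than at 0 h. Of the dwarf's rises, 403 were also rises in the tall (53.1% of the dwarf's 759 and 43.0% of the tall's 937), and of its falls 238 were also falls in the tall (31.8% of the dwarf's 748 and 40.7% of the tall's 585). No gene was called in opposite directions. The test of the difference between the varieties called 0 of 18840 genes (0.00%) by edgeR at an adjusted p under 0.05, with 1381 genes at an unadjusted p under 0.05 and a smallest adjusted p of 0.533. DESeq2 and limma on log2(FPKM + 1) also called 0, and limma on log2(FPKM + 0.1) called 1. Lists gave both near and distant medians. In the light reactions 21 members rose in the dwarf and 38 in the tall (medians 0.78 and 1.01), and in the Calvin cycle and photorespiration 17 and 20 (medians 1.22 and 1.20). In the cytosolic ribosome 10 members fell in the dwarf and 2 in the tall (medians -0.57 and 0.09), and the difference of these lists was not tested. Ribosomal protein L9 fell by 1.60 ± 0.27 in the dwarf and had a change of -0.23 ± 0.23 in the tall, a difference of -1.37 ± 0.32 that did not pass (adjusted p = 0.555). The beta-1 tubulin had -1.83 ± 0.42 in the dwarf and 0.03 ± 0.37 in the tall, a difference of -1.86 ± 0.51 (adjusted p = 0.561). SODCP, not called in the dwarf, rose by 0.95 ± 0.20 in the tall (adjusted p = 0.0098), and the difference of -0.75 ± 0.27 did not pass either (adjusted p = 0.615). None of these genes was shown to respond differently in the varieties.

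**Figure D5:**
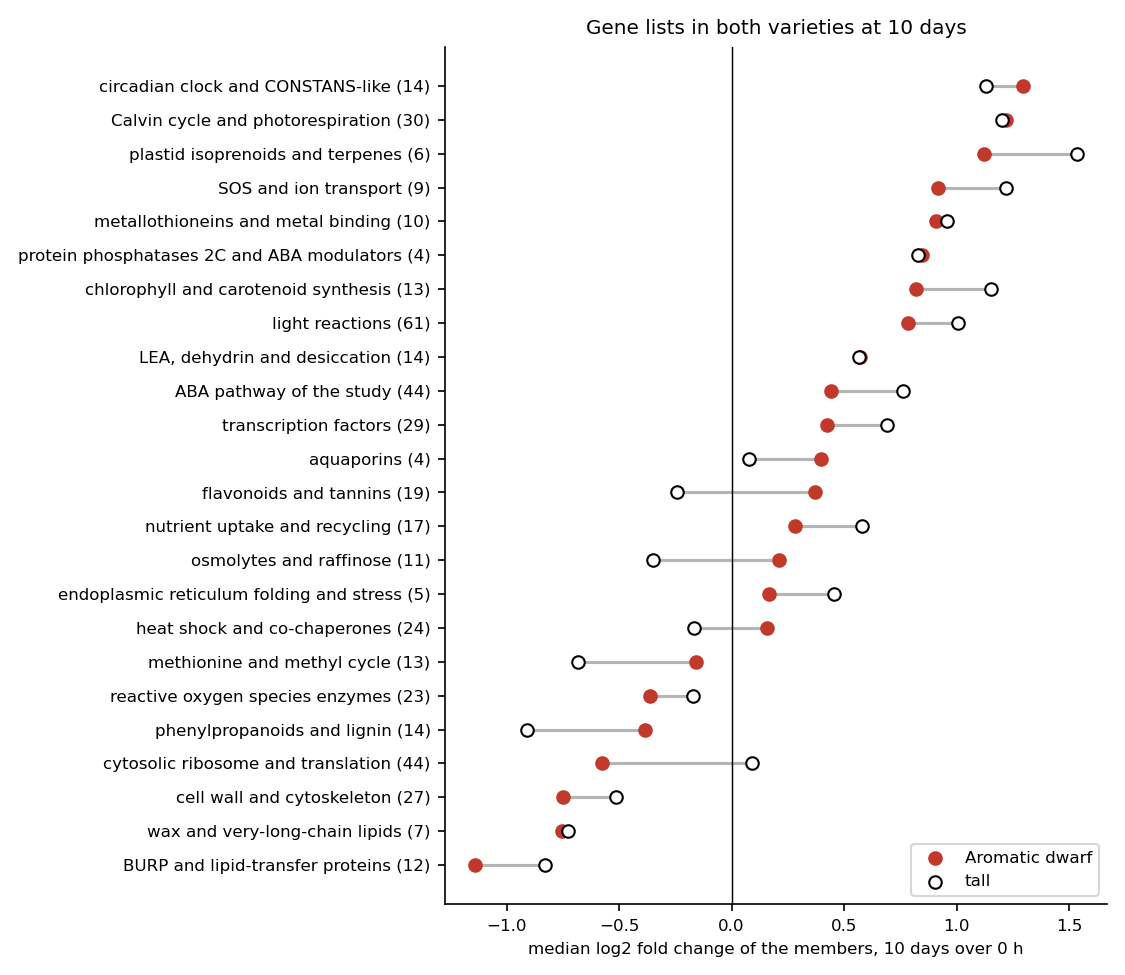
Median log2 fold change of 10 days over 0 h for each list in the dwarf (filled) and the tall (open). The medians are close for the Calvin cycle (1.22 in the dwarf and 1.20 in the tall) and apart for the cytosolic ribosome (-0.57 in the dwarf and 0.09 in the tall); the difference of medians was not tested.

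By level, photosynthesis genes made up much of the most abundant named transcripts. The Rubisco small chain CN01_03G009080 was the most abundant of the 738 named transcripts, with 44537 and 44830.2 FPKM at 10 days, against 21937, 25815 and 27273 FPKM at 0 h, and its change of 1.01 ± 0.33 missed the threshold (adjusted p = 0.0645). The other 9 of the 10 most abundant were Rubisco activase 2, the plastid aldolase, MT3, both tricyclene synthase loci, a ferredoxin (CN01_11G004210), the chlorophyll a-b binding protein, galactinol synthase 1 and subunit XI of photosystem I. The ferredoxin had 7646 and 8839 FPKM at 10 days, against 3165, 7071 and 5496 FPKM at 0 h (0.71 ± 0.43, adjusted p = 0.327), and subunit XI had 7206 and 6710.4 FPKM at 10 days, against 5069.9, 5112 and 5632 FPKM at 0 h (0.58 ± 0.26, adjusted p = 0.172).

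Marker genes for the tissues of a leaf were measured beside these groups. They come from the named genes, of which 17.1% rose and 7.99% fell, and their counts are read beside these shares. Whether a marker list departs from these shares was not tested. The 10 markers of green leaf tissue summed to 75953 to 82109 FPKM at 10 days, against 46859 to 58328 FPKM at 0 h, with 2 higher and 0 lower by the test, Rubisco activase 2 and oxygen-evolving enhancer protein 1 (0.79 ± 0.20, adjusted p = 0.0231). The 9 markers of vascular or lignifying tissue summed to 377 to 463 FPKM at 10 days, against 454 to 1087 FPKM at 0 h, with 1 higher (CASP-like protein 2D1) and 3 lower (fasciclin-like arabinogalactan protein 2, laccase-6 and dirigent protein 19), and these sums overlapped. The 15 markers of dividing or growing cells summed to 3685 to 3886 FPKM at 10 days, against 4576 to 5079 FPKM at 0 h, with 0 higher and 2 lower (the beta-1 tubulin and histone H1.2, which was not called without the flow cell term, adjusted p = 0.154). No marker was at 0 in any of the 5 libraries. Leaves were labelled only as leaf, the markers of green tissue were abundant in all 5, and the part of tissue makeup in the photosynthesis, wall and ribosome values was not tested. None of the 8 marker calls held without replicate 1 of 10 days. Some markers are members of the lists above, so the sums are not separate evidence.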

How the data were processed

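Oligo(dT)-enriched leaf RNA of both coconut varieties was sequenced as single-end reads in 22 libraries, which the labels assign to a variety and a time. Each deposited table holds expected counts, which the authors obtained from RSEM after Bowtie alignment against the gene set, and FPKM values from the same run by the authors. BWA served for the scaffolds, and versions are not given in the sources used here. A gene missing from a table was taken as 0.

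After rounding of the expected counts, 18840 of 25247 genes passed filterByExpr over the 8 groups. All 22 libraries were scaled by TMM and fitted together in edgeR 4.0.16 under R 4.3.3, with terms for group and flow cell, and contrasts were tested by quasi-likelihood. A standard error is the size of the log2 fold change over the square root of its F. The biological coefficient of variation was 24% in common, with 13 residual degrees of freedom, and 6 genes were called for the flow cell term. Totals were 2977359 to 3445467 counts per library, and replicates of these groups differed by more than counting noise. The test was also run on simulated data, and the outcome is not reported here.

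Samples of the same number are dependent samples of 1 leaf by the study's methods, so the numbers pair the samples. Over 15 pairs of dwarf samples with the same number, the correlation of residuals was -0.29 to 0.42 (mean 0.10). The mean of the other 30 pairs was -0.05. Residuals from a group mean sum to 0 within the group, so this second mean is tied to the first and is no separate baseline. Between tall samples of the same number the correlation was 0.07 to 0.45. Alternatives were the leaf as a block term, no flow cell term, DESeq2 1.42.0, RLE size factors, limma 3.58.1 on FPKM with a pseudocount of 1 or 0.1 before the log2, other filters, a further threshold of 1 on the log2 fold change, fewer libraries, and leaving out each library in turn. A fit on the libraries of 0 h and 10 days alone was extended to the dwarf comparison after seeing the data.

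Names came from the study's table of 738 genes selected on the tall libraries as changing or constantly abundant. Coordinates came from the RefSeq gene table for assembly ASM812446v1, matched by locus tag. The match was checked on other tables of the study that print coordinates, and 5355 of 5355 entries had the same coordinates. Named genes are 4 that the study names for salt (SODCP, protein phosphatase 2C 53, AKT2 and MT3), the 12 rises and 12 falls of largest size with a mean FPKM of at least 10, up to 4 called members per list (or the 2 of smallest p), the 10 most abundant, those called against 6 days, and at most 2 genes without a name per direction. The members and the 24 lists and 3 marker lists were chosen with earlier results of these data known, and no list was tested.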

Additional observations from a re-analysis of the deposited data

How the results depend on the processing

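The comparison of 10 days with 0 h in the dwarf called 1507 genes. It called 3514 without the flow cell term, and 2288 and 2318 by limma on log2(FPKM + 1) and log2(FPKM + 0.1). It called 436 with only the dwarf libraries and 2440 with only the 5 libraries compared. With the 10 libraries of 0 h and 10 days (added after seeing the data) it called 1. There the flow cell term rests on replicate 2 of the tall at 0 h, alone on AW in its group. The count stayed within 1.5 times with the replicate block for the leaf (1347), DESeq2 (1971), RLE size factors (1503), no filter (1330), at least 50 counts (1705) and a further threshold of 1 on the log2 fold change (1104). Without 1 library it was 81 to 1945. The block left 0 rises of plastid isoprenoids, 2 of reactive oxygen enzymes and 1 of ion transport, and gave 4 of nutrient recycling, 2 of vascular markers, 1 of phenylpropanoids and 1 fall of flavonoids (flavonoid 3',5'-hydroxylase 1, CN01_scaffold006962G000010, adjusted p = 0.0483). It ended the calls of 11 named genes, each noted beside its values, and changed no other call of a named gene and no other list count by over 1.5 times. Of the 81 called named genes, 73 kept their call without the flow cell term, 70 with the block, 80 with DESeq2, 68 with limma on log2(FPKM + 1), 31 with only the dwarf libraries, 71 with the 5 libraries and 0 with the libraries of 0 h and 10 days, and none turned its direction in these fits. Genes that were not called did: the class I heat shock gene CN01_02G006280 had -0.0013 with only the dwarf libraries, SODCP (CN01_08G010630) had -0.0545 and -0.0546 by limma and -0.0793 with the libraries of 0 h and 10 days, and there the ferredoxin CN01_11G004210 had -0.0342 and galactinol synthase 1 (CN01_14G004830) had -0.2899. Against 6 days, 120 genes were called in all, 507 by DESeq2, 54 by limma on log2(FPKM + 1), 207 with at least 50 counts, 0 with only the dwarf libraries, 92 with the replicate block and 5 to 340 without 1 library. The difference between the varieties gave 0 calls, 1 by limma on log2(FPKM + 0.1), 0 with the block and 0 to 1 without 1 library. Causes of these shifts were not tested, and with 2 leaves at 10 days each count rests on few samples.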
